A study of Mus musculus with 28 samples.

Results

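The 10 genes described here encode subunits of voltage-gated calcium channels: Cacna1a, Cacna1b, Cacna1e, Cacna1c, Cacna1d, Cacna1g, Cacna1h and Cacna1i, which form the pore, and Cacna2d2 and Cacna2d3, which belong to the alpha2delta family of auxiliary subunits. They were chosen by gene name, through the transcript that each array probe was designed on, and are 10 of the 20660 genes named on the array. Where a gene had more than 1 probe, the probe with the highest mean level was used. In Transcriptome Tomography, the method used, a brain is frozen and cut from end to end in 1 plane, and neighbouring sections are combined into fractions whose RNA is measured. The brains came from 3 male C57BL/6J mice of 3 weeks post-natal age, 1 mouse for each plane. Mouse 1 gave 12 coronal fractions, mouse 2 gave 6 horizontal fractions and mouse 3 gave 10 sagittal fractions. Each fraction was hybridised to 1 array, so no position was measured again and the mouse and the plane cannot be told apart.

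Voltage-gated calcium channels open when a membrane depolarises and let calcium into the cell, where it triggers transmitter release, shapes firing and controls gene transcription. The pore-forming subunit sets the channel type. P/Q- and N-type channels act mainly at synaptic terminals, and L-type channels on cell bodies and dendrites. T-type channels open at low voltage and support burst firing and rhythms. Alpha2delta subunits bring pore subunits to the membrane, and some are the targets of gabapentinoid drugs. In the brain, mutations of several of these genes are known for ataxia and absence epilepsy.

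A level is given below as the log2 ratio of a probe's processed signal to the 75th percentile signal of its array, so 0 is that percentile and 1 unit is a 2-fold difference. Because probes differ in how well they bind, the level of 1 gene is never set against that of another. The 75th percentile signal lay between 135 in sagittal fraction 1 and 574 in coronal fraction 4, and 24822 to 34240 probes were well above background per array. Repeated spots of a probe differed by an SD of 0.056 to 0.0855 log2 within an array. The median probe lay at -4.14 to -3.62 in the coronal series. In the horizontal series it lay at -2.79 in fraction 6 and -3.13 in fraction 1, against -3.85 to -3.51 in fractions 2 to 5. In sagittal fraction 9 it lay at -2.53, against -4.04 to -3.51 on the other arrays of that series. Horizontal fraction 6 and sagittal fraction 9 are called below the arrays that stood apart. Horizontal fraction 1 was shifted the same way, but less. All 4 pan-neuronal markers, all 4 astrocyte markers and all 5 myelin markers were well above background on all 28 arrays, so markers of the labelled tissue were present throughout. Lists of regional markers tell what lay at each position. Along the coronal axis the hindbrain, cerebellar granule cell and Purkinje cell lists peaked in fraction 2. The peaks of the striatum list (fraction 8), the cerebral cortex list (fraction 9) and the olfactory bulb list (fraction 12) followed. Horizontally, cerebral cortex markers peaked in fraction 1 and hypothalamus markers in fraction 6. Sagittally, hypothalamus markers peaked in fraction 5 and olfactory bulb markers in fraction 6. Some markers of each of these regional lists, and all 3 tested of the hindbrain list, were not well above background in some fractions, so no heights of these peaks are given and the correlations with them below include such values. In such bulk fractions, fewer cells of a type and less RNA per cell cannot be told apart.

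Variation of the subunits with position was tested in each series with limma, as a smooth curve of the level over the fraction number, and the residual around that curve is the only error. Of the 10 genes, 9 were tested, and Cacna1c was left out because it was never well above background in the horizontal series. In the coronal series 5 of 9 varied with position (Cacna1d, Cacna1g, Cacna1h, Cacna2d2 and Cacna2d3), where 33.7% of all 32364 probes tested did. The fitted curves of the 9 genes spanned a median of 1.70 log2, against 0.90 over all probes, and those of Cacna1b and Cacna1e run partly through levels not well above background. In the horizontal series 2 of 9 varied, Cacna1a and Cacna1d, where 15.8% of all probes did. In the sagittal series 2 of 9 varied, Cacna1g and Cacna2d2, where 14.7% of all probes did. The median spans there were 1.54 against 0.74 and 1.17 against 1.06. The horizontal and sagittal shares, 22.2% each, were near those of all probes. The arrays lay on 4 slides, and in the coronal series fractions 1 and 2 were on slide 1, fractions 3 to 10 on slide 2 and fractions 11 and 12 on slide 3. With the slide as an added term, or on slide 2 alone, 0 of 9 passed the limma test, where 0.745% and 12.9% of all probes did, with 5410 and 11784 probes at an unadjusted p under 0.05.

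**Figure D1:**
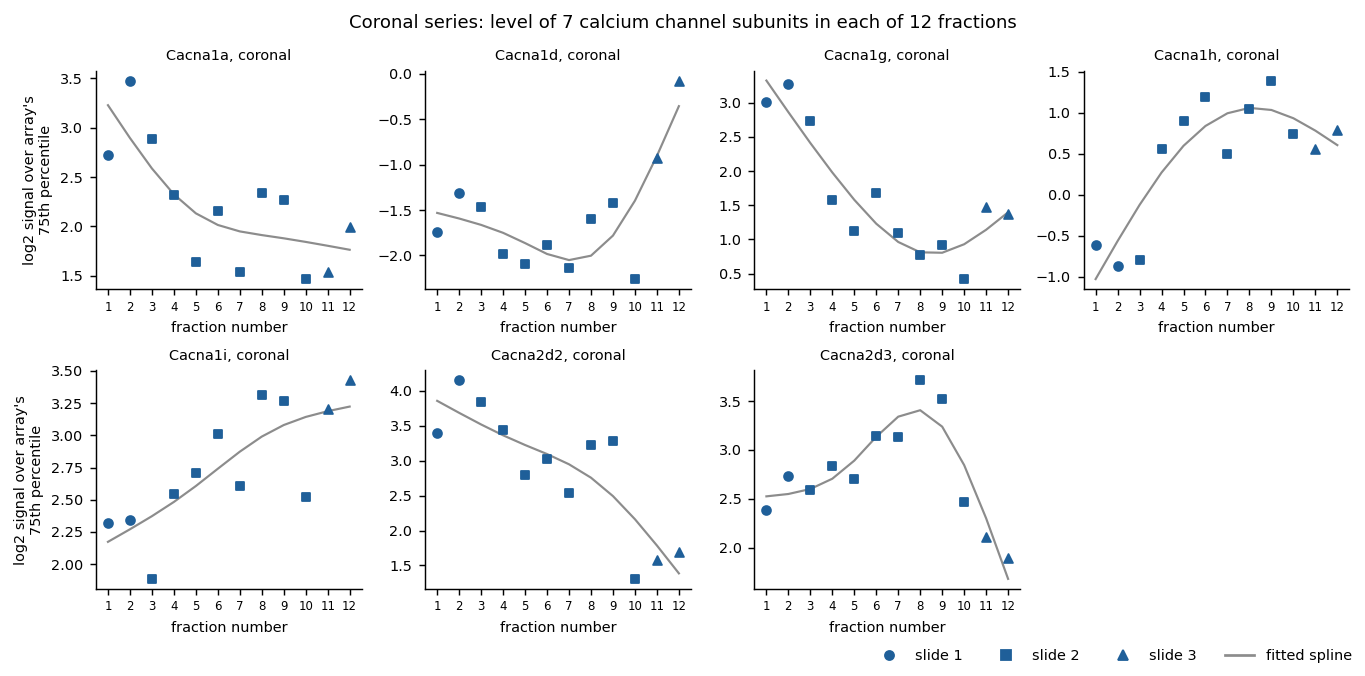
Level (log2 signal over the 75th percentile of the array) against fraction number in the 12 coronal fractions, for the 7 genes well above background on all 28 arrays. Points are single arrays, their shape gives the slide and the grey line is the fitted spline; Cacna1g and Cacna2d2 sit highest in fraction 2 (3.28 and 4.15) and lowest in fraction 10 (0.42 and 1.31).

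Cacna1a encodes the pore subunit of P/Q-type channels, which drive transmitter release at most central synapses and carry most of the calcium current of Purkinje cells. Its probe (designed on NM_007578) was well above background on all 28 arrays. Over the 12 coronal fractions its level ran from 1.47 in fraction 10 through a median of 2.21 to 3.48 in fraction 2. Fractions 2, 3 and 1 (3.48, 2.88 and 2.72) held its 3 highest coronal levels, and the highest was 4.03 times the lowest. The limma curve did not pass in this series (adjusted p = 0.0707; 0.0254 to 0.823 over 22 alternatives). It passed in 4 of the 22. These were the fits without fraction 1 (0.0254), with normexp (0.0420), with the stricter filter on dim probes (0.0386) and with 1 degree of freedom fewer (0.0309). In the 6 horizontal fractions the levels were 1.88, 2.44, 2.31, 2.62, 1.76 and 0.75, highest in the middle fractions and lowest in fraction 6, a 3.65-fold range. Fraction 6 is the horizontal array whose median probe stood apart, and that of fraction 1 was raised too. Fractions 1 to 5 alone span 1.76 to 2.62. In the horizontal series the curve spanned 1.80 log2 against a residual SD of 0.22 and passed limma's test (adjusted p = 0.0311; 0.00593 to 0.647 over 14 alternatives). Without fraction 1, 2, 5 or 6 the call was lost (adjusted p = 0.0614, 0.0598, 0.0505 and 0.228). Without fraction 3 or 4 limma called 0 of 32364 probes, while 10053 and 7679 had an unadjusted p under 0.05, so these fits do not bear on single genes. Along the sagittal axis its level ran from 1.37 in fraction 9, the other such array, through a median of 2.33 to 2.88 in fraction 3, with fractions 3 to 6 between 2.66 and 2.88, and the curve did not pass (adjusted p = 0.0624). The gene's second probe had r = 0.88 with the first over the 28 fractions and passed in the horizontal series alone (0.0621, 0.0228 and 0.112 in the coronal, horizontal and sagittal series).

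Cacna1b, the pore of N-type channels, the presynaptic channels blocked by omega-conotoxin, was well above background in only 8 of 28 fractions (NM_001042528). Those were coronal fraction 6 (-4.08), horizontal fractions 2 and 4 (-4.07 and -4.18) and sagittal fractions 2 to 6 (-4.82, -3.84, -4.15, -3.64 and -4.13). These sagittal fractions are also the arrays with the lowest floor: the lowest level well above background lay between -5.85 and -4.75 in fractions 2 to 6 and between -4.24 and -3.03 in fractions 1 and 7 to 10. Fraction 10 (-3.75), not well above background, stood higher than 4 of the 5, so no pattern along the axis is given. No fold is given, since the lowest levels are only bounds, and the curve passed in no series (limma adjusted p = 0.610, 0.130 and 0.373 in the coronal, horizontal and sagittal series).

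Cacna1e, the pore of R-type channels, was well above background in 13 of 28 fractions (NM_009782). In the sagittal series these were fractions 2 to 7, at -4.64, -2.78, -3.51, -3.40, -4.23 and -3.78, and the level in fraction 3 was at least 2.11-fold that in fraction 1. Fraction 10 (-3.92) was higher than fractions 2 and 6 without being well above its array's background, so the fractions named follow the arrays' floors too. In the coronal series fractions 2, 3, 5, 6 and 9 were well above background, between -4.07 and -3.20, with no order along the axis, and in the horizontal series fractions 3 and 4 were (-3.59 and -3.77). The sagittal curve, which runs partly through levels not well above background, just missed the threshold (limma adjusted p = 0.0526; 0.0184 to 0.718 over 19 alternatives), and the coronal and horizontal curves gave 0.537 and 0.206.

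**Figure D2:**
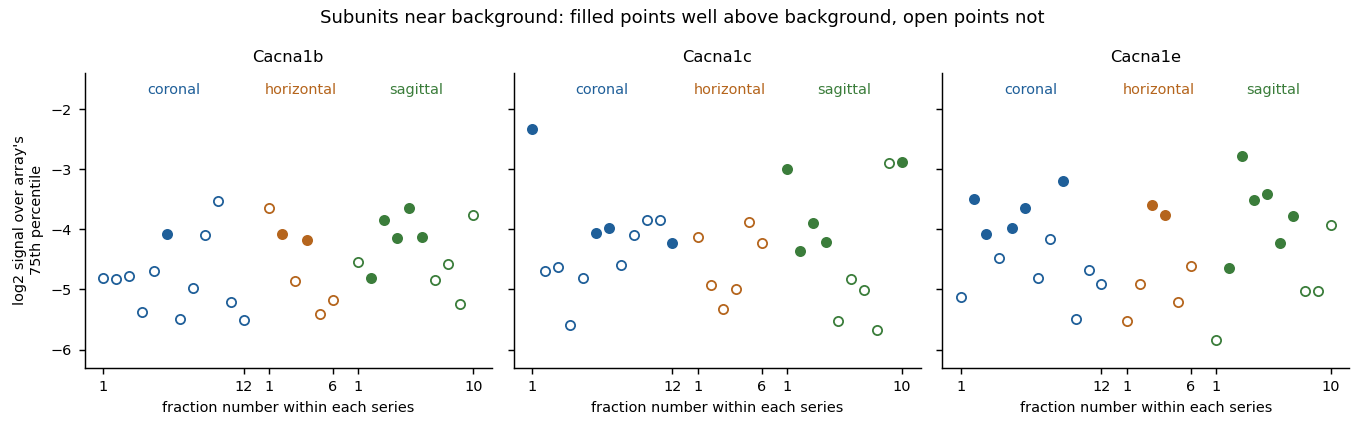
Level (log2 signal over the 75th percentile of the array) of Cacna1b, Cacna1c and Cacna1e in each of the 28 fractions, ordered by fraction number within the coronal, horizontal and sagittal series. Filled points are well above background and open points are not; 8, 9 and 13 points are filled.

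The L-type channels couple depolarisation to calcium signals in cell bodies and dendrites, and Cacna1c and Cacna1d encode their 2 main neuronal pores. Cacna1c was well above background in 9 of 28 fractions (NM_001256002), which were coronal fractions 1, 6, 7 and 12 and sagittal fractions 1 to 4 and 10. Its highest level was -2.32 in coronal fraction 1, at least 5.31-fold that in fraction 4, and the next highest of these 9 were -2.87 and -2.99 in sagittal fractions 10 and 1, the 2 outermost fractions of that axis. Sagittal fraction 9 (-2.89), an array with a high floor, was as high without being well above background. Coronal fraction 2, next to the highest, was not well above background. It was not tested.

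Cacna1d, which opens at lower voltage than Cacna1c and supports pacemaking, was well above background on all 28 arrays (NM_001083616). Its coronal levels ran from -2.26 in fraction 10 through a median of -1.67 to -0.07 in fraction 12, with fraction 11 next at -0.92. The 2 last fractions thus stood above the other 10, which lay between -2.26 and -1.32, and the highest was 4.56 times the lowest. The coronal curve spanned 1.70 log2 with a residual SD of 0.42 (limma adjusted p = 0.0405). That call rested on several fractions: without fraction 12 the adjusted p was 0.455, and without fraction 11 it was 0.0988. Without fraction 2, 4, 5, 6 or 7 it was 0.0532 to 0.0727. The call was also lost with the array median (0.0501), quantile normalization (0.0529), the slide term (0.976) and on slide 2 alone (0.340). Over 22 alternatives the adjusted p ran from 0.00496 to 0.976. Fractions 11 and 12 were the coronal arrays on slide 3. The olfactory bulb list, also highest in fraction 12, had r = 0.70 with Cacna1d over the 12 coronal fractions, and its part in the trend was not tested. In the horizontal fractions the levels were -2.13, -1.52, -1.38, -1.32, -1.98 and -2.44, again highest in the middle and lowest in fraction 6, the array that stood apart (2.18-fold; span 1.19, residual SD 0.12, limma adjusted p = 0.0372). Fraction 1, also with a raised median probe, was next lowest. Of the 4 fits with a fraction left out that called any probe, 1 passed, that without fraction 5 (0.0422; 0.00676 to 0.859 over 14 alternatives). The horizontal call was also lost with normexp (0.244) and with no filter on dim probes (0.0603). With 1 degree of freedom fewer it was lost too (0.859), where 1 of 32364 probes was called. The sagittal levels of Cacna1d ran from -2.77 in fraction 1 through a median of -1.72 to -1.22 in fraction 8 (adjusted p = 0.192). The gene's other probe was also highest in coronal fraction 12 and passed there (adjusted p = 0.0104), with r = 0.78 between the probes in that series. In the horizontal series it did not pass (adjusted p = 0.0747), was highest in fraction 1 rather than in the middle and had r = 0.45 with the first probe. Over the sagittal fractions the 2 probes had r = -0.73, so the horizontal and sagittal profiles depend on the probe.

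T-type channels set the burst firing of thalamic, cerebellar and olfactory neurons. Cacna1g, their main pore in thalamic relay neurons, Purkinje cells and the deep cerebellar nuclei, was well above background on all 28 arrays (NM_009783). Its coronal levels in fractions 1 to 12 were 3.01, 3.28, 2.74, 1.58, 1.12, 1.68, 1.09, 0.77, 0.92, 0.42, 1.47 and 1.37. Fractions 1 to 3 stood above all others, and fraction 10 was lowest, at 7.26-fold below fraction 2. The 2 highest fractions, 2 and 1, lay closer together than the residual SD of 0.41. The coronal curve spanned 2.52 log2 (limma adjusted p = 0.00313). All 12 fits with a fraction left out passed, and the 2 fits that did not were the slide term (0.189) and slide 2 alone (0.0595; 0.000487 to 0.189 over 22 alternatives). The Purkinje cell, cerebellar granule cell and hindbrain lists were highest in the same fraction, with r = 0.90, 0.90 and 0.88 over the coronal fractions. The astrocyte list had r = 0.88 and the cerebral cortex list -0.92, and the part of these lists in the trend was not tested.

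Cacna1g had sagittal levels of -0.19, 1.14, 2.25, 2.25, 2.28, 2.33, 1.89, 1.39, 0.35 and 1.31 from fraction 1 to 10. Fractions 3 to 6 were highest, between 2.25 and 2.33, and fractions 1 and 9 were lowest. The highest was 5.74 times the lowest, and the curve spanned 2.60 log2 with a residual SD of 0.41 (limma adjusted p = 0.0214; 0.00362 to 0.700 over 20 alternatives). Without fraction 4 or 6 the adjusted p was 0.0534 and 0.0551, and with the array median 0.0942. Without fraction 1, the array with the lowest signal, it was 0.206 and on slide 3 alone 0.700, and both of these fits called 0 of 32364 probes, while 5955 and 2330 had an unadjusted p under 0.05. In the horizontal fractions the levels were 1.06, 1.62, 1.61, 2.05, 1.38 and 0.28, with fraction 4 highest and fraction 6, the array that stood apart, lowest, and the curve just missed the threshold (adjusted p = 0.0503). The second probe of the gene, on the same transcript, had r = 0.91 with the first over the 28 fractions and passed in the coronal and sagittal series as well (0.00318 and 0.00953).

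Cacna1h, the T-type pore known for a nickel-sensitive current and for variants in absence epilepsy, had the opposite coronal course (NM_021415). Its levels were -0.61, -0.87 and -0.79 in fractions 1 to 3, and 0.51 to 1.40 in fractions 4 to 12, highest in fraction 9. The highest level was 4.80 times the lowest. The curve spanned 2.09 log2 with a residual SD of 0.43 (limma adjusted p = 0.0113). It passed in all 12 fits with a fraction left out, and not with the slide term (0.366) or on slide 2 alone (0.0981; 0.00371 to 0.366 over 22 alternatives). Over the coronal fractions its r was 0.94 with the cerebral cortex list and -0.92 and -0.91 with the cerebellar granule cell and Purkinje cell lists, and with Cacna1g it was -0.88. In the horizontal fractions the levels were 0.73, 0.00, 0.48, 0.70, 1.07 and 1.56, highest in fraction 6 (adjusted p = 0.0757). Sagittal fraction 9 stood at 2.14 and the next highest, fraction 3, at 1.07, with a median of 0.39 and a low of -0.17 in fraction 8 (adjusted p = 0.882, and 0.169 without fraction 9). Both of these highest fractions are the arrays whose median probe stood apart, and scaled by the array median, the highest fractions were 5 and 3 instead. The second probe, on another transcript, was well above background on 19 arrays and had r = 0.45 with the first (0.60 in the coronal series). It was also highest in coronal fraction 9 but did not pass there (adjusted p = 0.0568).

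Cacna1i, the slow T-type pore of the reticular thalamus and other neurons, was well above background on all 28 arrays (NM_001044308). Its coronal levels ran from 1.89 in fraction 3 through a median of 2.66 to 3.43 in fraction 12, a 2.91-fold range, with fractions 8, 9 and 11 next at 3.31, 3.26 and 3.21. The coronal curve did not pass (limma adjusted p = 0.0671; 0.0105 to 0.371 over 22 alternatives). The horizontal levels were 2.69, 2.77, 2.51, 2.59, 2.28 and 1.57, lowest in fraction 6 (adjusted p = 0.0541). The sagittal levels ran from 2.04 in fraction 1 through a median of 2.63 to 3.32 in fraction 3 (adjusted p = 0.0638). The gene's second probe, designed on the same transcript, did not follow the first, with r = -0.45 over the 28 fractions and 0.02, -0.68 and -0.89 over the coronal, horizontal and sagittal ones. It passed in the sagittal series (adjusted p = 0.0226) with its highest level in fraction 1, and the first probe passed in none, so no direction is given for this gene along any axis.

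**Figure D3:**
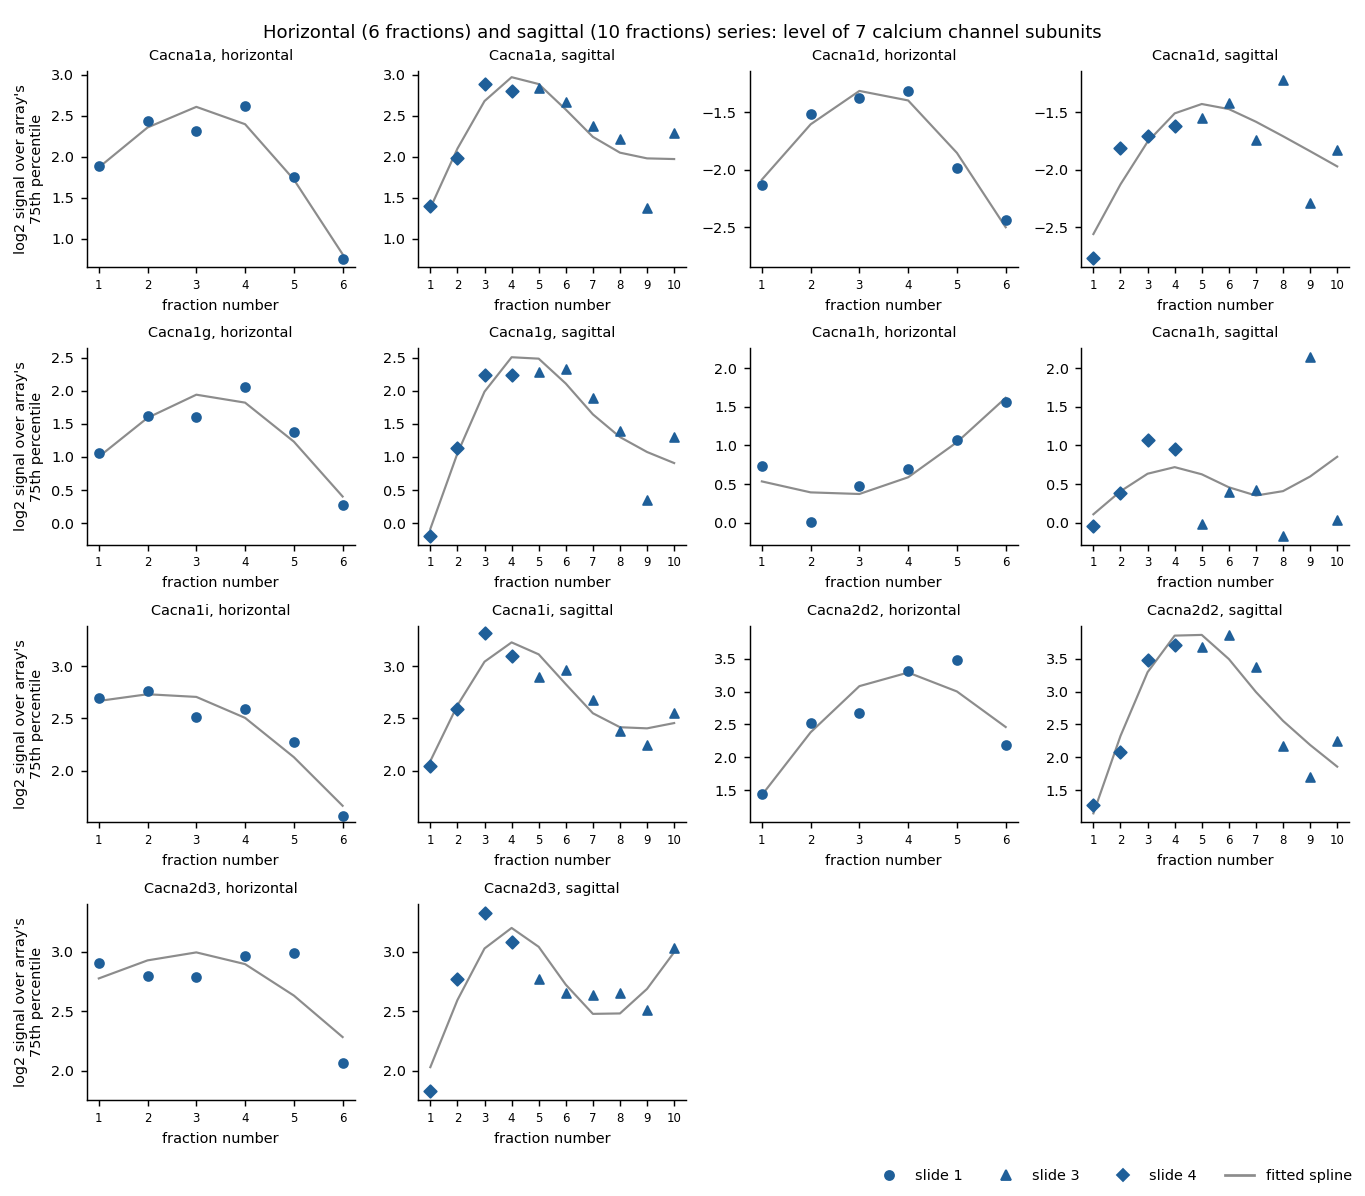
Level (log2 signal over the 75th percentile of the array) against fraction number in the 6 horizontal and 10 sagittal fractions for the 7 genes well above background on all 28 arrays; each gene has 1 scale for both series. Points are single arrays, shapes give the slide and grey lines are fitted splines; in the sagittal series Cacna1g and Cacna2d2 are highest in fraction 6 (2.33 and 3.86) and lowest in fraction 1 (-0.19 and 1.28).

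Cacna2d2 encodes an alpha2delta subunit that is abundant in Purkinje cells and whose loss causes ataxia and epilepsy in the ducky mouse. Cacna2d3 encodes a relative known from hearing and pain. The RefSeq promoter table (build GRCm38.p6, from 250 bases before to 50 after a start) held windows for 7 of the 10 genes, and those of both alpha2delta genes are shown because both genes varied along the coronal axis, with their highest levels in different fractions (2 and 8). Each reads 5′ to 3′ along the transcript, and capitals mark the GC box, GGGCGG on either strand, with adjoining or overlapping boxes in 1 run of capitals.

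Cacna2d2, chr9:107399630-107399929, plus strand: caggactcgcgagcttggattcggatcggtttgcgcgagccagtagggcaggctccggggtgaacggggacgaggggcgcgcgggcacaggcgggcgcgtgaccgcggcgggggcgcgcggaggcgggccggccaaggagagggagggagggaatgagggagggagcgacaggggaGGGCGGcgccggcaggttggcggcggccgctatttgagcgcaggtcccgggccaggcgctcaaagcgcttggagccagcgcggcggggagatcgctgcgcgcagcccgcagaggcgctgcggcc

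Cacna2d3, chr14:29721815-29722114, minus strand: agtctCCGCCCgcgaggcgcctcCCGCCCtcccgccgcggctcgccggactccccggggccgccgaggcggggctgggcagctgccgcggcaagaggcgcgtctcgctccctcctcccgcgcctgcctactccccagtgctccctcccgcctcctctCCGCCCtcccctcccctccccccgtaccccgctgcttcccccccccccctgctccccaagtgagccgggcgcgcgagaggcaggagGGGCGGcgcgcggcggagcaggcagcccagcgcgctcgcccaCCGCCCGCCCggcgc

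The Cacna2d2 window held 1 GC box and the Cacna2d3 window 6, counting overlaps. Of 32851 windows of 300 bases, 35.7% held at least 1. Both windows were rich in CG, with 43 and 41 CpG sites and 75.7% and 81.3% G and C, against medians of 7 and 52.7% over all windows. Neither held the letters TATAAA, found in 13.6% of windows on either strand. Of the windows of the other genes, that of Cacna1b held 3 GC boxes, and those of Cacna1e and Cacna1i held 0. Cacna1c has 3 windows, of which 1 held 6 GC boxes and 2 held 0, and Cacna1d has 2, with 0 and 6.

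Cacna2d2 was well above background on all 28 arrays (NM_001174047). Its coronal levels in fractions 1 to 12 were 3.40, 4.15, 3.84, 3.44, 2.79, 3.03, 2.54, 3.22, 3.28, 1.31, 1.58 and 1.69. The last 3 fractions held the lowest levels, and fraction 2 was 7.17-fold above fraction 10. The curve spanned 2.47 log2 with a residual SD of 0.57 (limma adjusted p = 0.0204; 0.00779 to 0.512 over 22 alternatives), and without fraction 11 it was 0.0656. With the slide term it was 0.512. Its profile followed the olfactory bulb list inversely in this series (r = -0.77) and the myelin list most closely (0.75), with 0.68 to 0.69 for the hindbrain, pan-neuronal, cerebellar granule cell and Purkinje cell lists. In the horizontal fractions the levels were 1.45, 2.52, 2.68, 3.32, 3.48 and 2.19, lowest in fraction 1 and highest in fraction 5 (4.10-fold; adjusted p = 0.0716), and with the array median as the reference fraction 4 was highest. Fraction 1, whose median probe was raised, stayed lowest on that scale (4.58). Fraction 5 was also where the midbrain dopamine, choroid plexus, myelin and hindbrain lists were highest, with horizontal r of 0.86, 0.84, 0.82 and 0.62.

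Along the sagittal axis Cacna2d2 had levels of 1.28, 2.08, 3.48, 3.70, 3.68, 3.86, 3.37, 2.16, 1.70 and 2.25. Fractions 3 to 7 held the highest levels, and fraction 1 was 5.98-fold below fraction 6. The curve spanned 2.71 log2 with a residual SD of 0.40 (limma adjusted p = 0.0148; 0.00306 to 0.690 over 20 alternatives). Of the 10 fits with a fraction left out 9 passed, and without fraction 1 the adjusted p was 0.118. With the array median it was 0.0630 and on the 6 fractions of slide 3 alone 0.690, where, as without fraction 1, no probe was called, and with the slide as an added term the call held. The second probe, well above background on 20 arrays, had r = 0.73 with the first and passed in all 3 series (0.00526, 0.0259 and 0.0281 in the coronal, horizontal and sagittal series), with its highest levels in fractions 3, 6 and 4. Over the horizontal fractions the 2 probes had r = 0.58. Horizontal fraction 6 is the array that stood apart, and the first probe was highest in fraction 5, so the horizontal profile depends on the probe.

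Cacna2d3 had a single probe, well above background on all 28 arrays (NM_009785). Its coronal levels in fractions 1 to 12 were 2.39, 2.73, 2.58, 2.83, 2.70, 3.14, 3.13, 3.71, 3.52, 2.47, 2.11 and 1.89. Fractions 8 and 9 were highest and fractions 11 and 12 lowest, and the highest was 3.53 times the lowest. The curve spanned 1.73 log2 with a residual SD of 0.26 (limma adjusted p = 0.00700), and all 12 fits with a fraction left out passed, while the slide term gave 0.314 and slide 2 alone 0.109 (0.00258 to 0.314 over 22 alternatives). The pan-neuronal list and the striatum list were highest in fraction 8 too, with coronal r of 0.90 and 0.74, and their part in the trend was not tested. The horizontal levels were 2.90, 2.79, 2.79, 2.97, 2.98 and 2.07, so that 5 fractions lay between 2.79 and 2.98 and fraction 6 lay below them (adjusted p = 0.281). The sagittal levels ran from 1.83 in fraction 1 through a median of 2.71 to 3.33 in fraction 3 (adjusted p = 0.103).

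In the sagittal series, fractions at equal distance from the middle (1 and 10, 2 and 9, 3 and 8, 4 and 7, 5 and 6) are the nearest thing to a repeat, on the assumption that the midline lies between fractions 5 and 6, where the hypothalamus and olfactory bulb lists were highest. Levels of Cacna2d2 averaged 1.76, 1.89, 2.82, 3.54 and 3.77 over the 5 pairs from the outside in, and those of Cacna1g 0.56, 0.75, 1.82, 2.07 and 2.30. On this scale both averages were higher at each step towards the middle pair. Those of Cacna2d3 (2.43, 2.64, 2.99, 2.86 and 2.71) were highest in the third pair. For Cacna2d2 and Cacna1g both the outermost and the innermost step were below the median gap within pairs. For Cacna1g the step from fractions 3 and 8 to fractions 4 and 7 was below it too. The outermost step was reversed with the array median as the reference, while the later steps kept their direction. There Cacna2d2 stood at 4.80 and 5.77 in fractions 1 and 10, but at 5.89 and 4.23 in fractions 2 and 9. Cacna1g stood at 3.33 and 4.82, but at 4.95 and 2.885. Fraction 9 is the array whose median probe stood apart. Within pairs, the 2 fractions of Cacna2d2 differed by a median of 0.37 and at most 1.31 log2 (fractions 3 and 8), and those of Cacna1g by a median of 0.78 and at most 1.50 (fractions 1 and 10). In Cacna1h the largest gap was 1.77, between fractions 2 and 9. Between pairs, limma called 0 of 9 genes, where 0% of all probes was called. At an unadjusted p under 0.05 there were 5406 of 32364 probes, among them Cacna2d2 (p = 0.00979, adjusted 0.222) and Cacna1g (p = 0.0358, adjusted 0.272). With the array median as the reference Cacna2d2 was called (adjusted p = 0.0271), where 3.46% of all probes were, and the other alternatives called 0 of the genes.

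**Figure D4:**
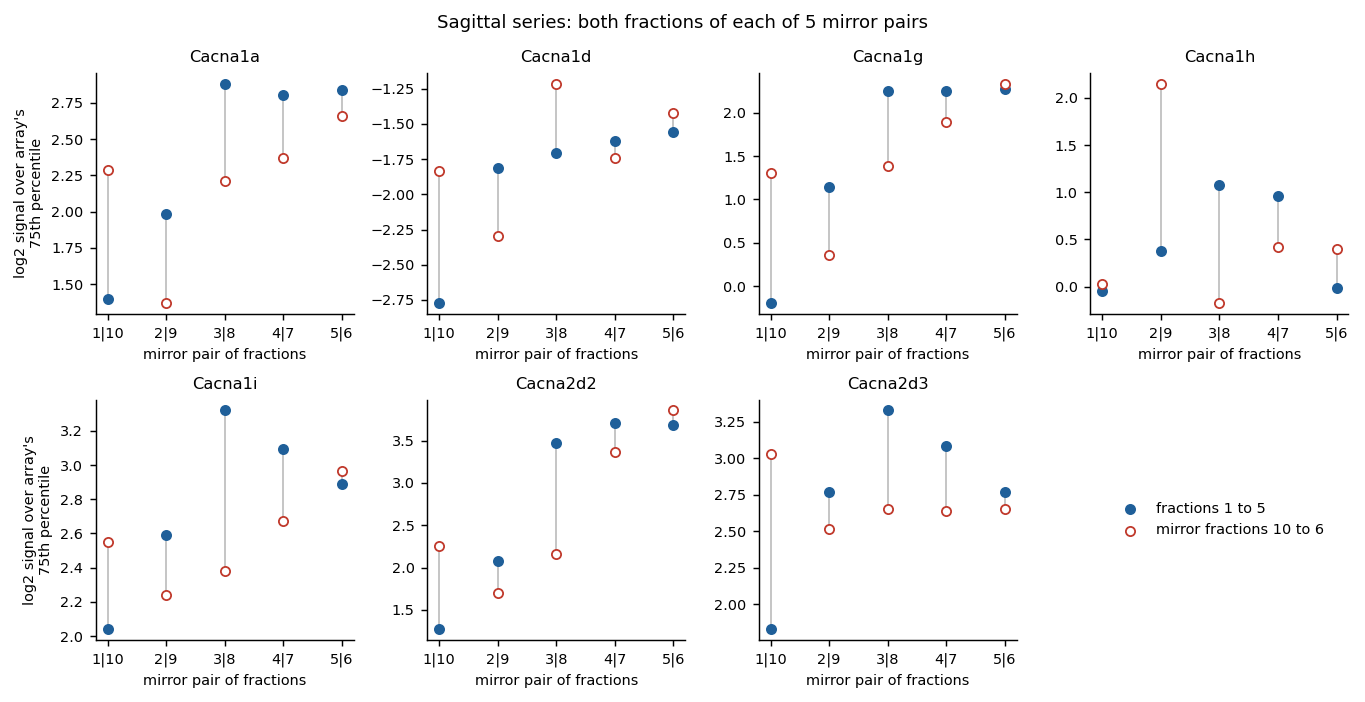
Level (log2 signal over the 75th percentile of the array) of 7 genes in the sagittal series, with both fractions of each of the 5 mirror pairs joined by a line, outermost pair on the left. Filled points are fractions 1 to 5 and open points fractions 10 to 6; in Cacna2d2 the pair averages go from 1.76 to 3.77.

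Among the 9 genes tested, the profiles of Cacna1a and Cacna1g were the most alike over the 28 fractions (Pearson r = 0.87; 0.82, 0.96 and 0.97 in the coronal, horizontal and sagittal series). Cacna2d2 had r = 0.76 with each of them, with 0.34 for Cacna1a and 0.57 for Cacna1g over the 6 horizontal fractions. Cacna1h was the least like them, at -0.55 with Cacna1a and -0.58 with Cacna1g. Cacna1g and Cacna1i, both T-type pores, had r = 0.14 over all fractions, with -0.61, 0.79 and 0.91 in the coronal, horizontal and sagittal series, values that rest on the Cacna1i probe whose second probe did not follow it. The 2 alpha2delta genes had r = 0.49. These values describe 28 fractions of 3 brains, in which neighbouring fractions share anatomy and all probes of a fraction share an array.

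Against the marker lists over the 28 fractions, Cacna1g had its highest r with the Purkinje cell list (0.80), followed by the cerebellar granule cell list (0.76), and Cacna1a had 0.72 and 0.68 with the same lists. Cacna2d2 was highest with the myelin list (0.76) and the hindbrain list (0.73). For Cacna2d3 the pan-neuronal list was highest (0.86), at 0.86 to 0.90 within each series. The astrocyte list had r = -0.77 with Cacna1h and the olfactory bulb list 0.59 with Cacna1d. Both values hold for the probe used alone. The second probes of Cacna1h and Cacna1d had r = 0.45 and 0.17 with it, and that of Cacna1d had -0.73 in the sagittal series. The genes of a list share their fractions with every other cell of that slab, so r does not place a subunit in a cell type.

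**Figure D5:**
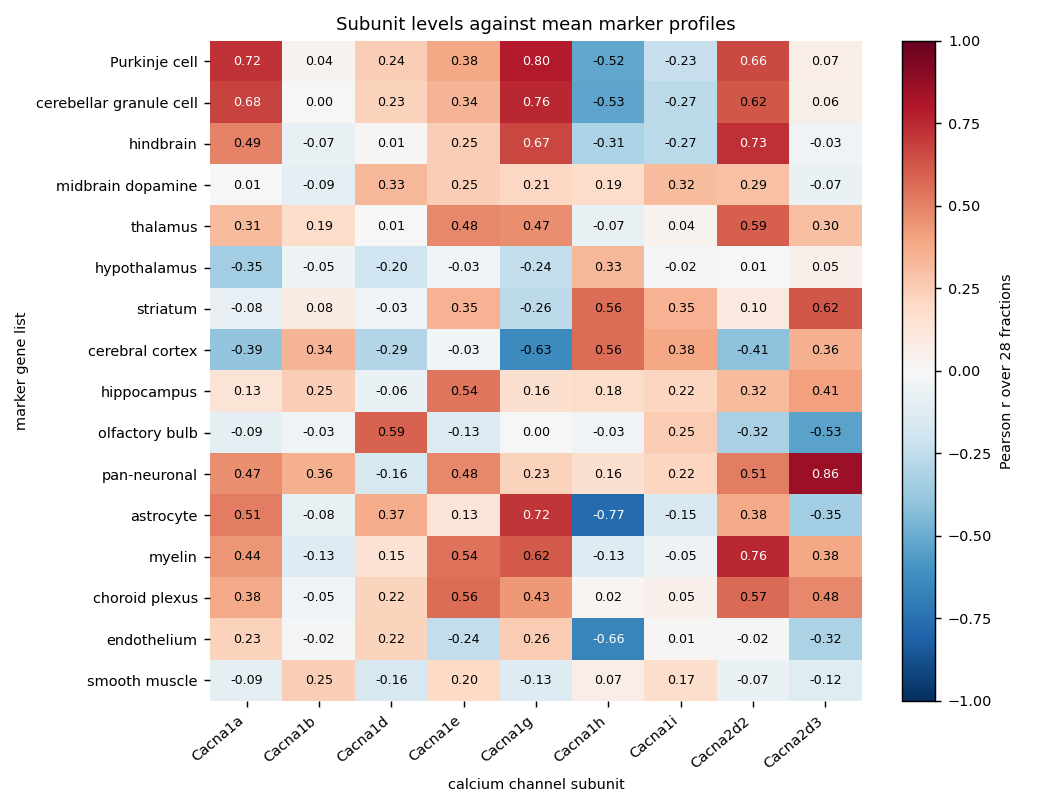
Pearson r over 28 fractions between the level of each of 9 subunits (columns) and the mean centred profile of each of 16 marker lists (rows); colour runs from blue (-1) to red (1). Cacna2d3 with the pan-neuronal list (0.86) and Cacna1g with the Purkinje cell list (0.80) are the reddest cells, and Cacna1h with the astrocyte list (-0.77) is the bluest.

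Of 15559 other genes, those with the profile most like Cacna1g over the 28 fractions were the transmembrane genes Tmem25 (r = 0.95) and Tmem229b (0.94), and for Cacna2d2 they were Kcna1, an axonal potassium channel (0.95), and Apbb2, an adaptor of the amyloid precursor protein (0.94). For Cacna1a they were Ackr1, an atypical chemokine receptor, and Coro2b, a coronin (0.94 and 0.92). Cacna2d3 was nearest to Ppp3ca, a catalytic subunit of calcineurin, and Elmod1 (0.92 and 0.91). Cacna1d was nearest to Zfp385b and Shpk (0.92 and 0.90), and Cacna1i to Prkca, a protein kinase C, and Arhgap20 (0.90 and 0.87). For these 2 genes the likeness holds for the probe used alone, since their second probes had r = 0.17 and -0.45 with it. The nearest genes were less like Cacna1h (Fras1 and Tcf20, 0.83 and 0.81) and the dim genes Cacna1e (Klf7 and Hsf2, 0.79 each) and Cacna1b (Slit3 and Rasal2, 0.72 and 0.70). An r over 0.85 was reached by 204 genes for Cacna2d2, 154 for Cacna1g, 45 for Cacna1a, 23 for Cacna2d3, 19 for Cacna1d and 5 for Cacna1i, each with the probe used, and by 0 for the other 3.

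Of 16 other channel subunits, 14 were tested and 12, 5 and 5 of them varied in the coronal, horizontal and sagittal series (85.7%, 35.7% and 35.7%, beside 33.7%, 15.8% and 14.7% of all probes). Among them Cacnb3, a cytoplasmic beta subunit, passed in all 3 series, with coronal levels from 1.24 in fraction 3 to 4.14 in fraction 11 (limma adjusted p = 0.00431). Cacng3 and Cacng5, relatives of stargazin that traffic glutamate receptors, passed in all 3 as well. Cacnb4, the beta subunit mutated in the lethargic mouse, passed in none (adjusted p = 0.901, 0.0503 and 0.0600 in the coronal, horizontal and sagittal series). Cacna2d1, another alpha2delta gene, varied in the coronal series from 1.43 in fraction 1 to 3.57 in fraction 8 (adjusted p = 0.00413), sharing its highest fraction with Cacna2d3. Cacng2, stargazin, was highest in coronal fraction 2 (3.99; adjusted p = 0.0248), the fraction in which Cacna1a, Cacna1g and Cacna2d2 were highest. The coronal calls of this list and of the lists that follow come from fits without a slide term. With that term 0.745% of all probes were called in the coronal series. In the sagittal series 1.04% of all probes were called with the array median as the reference. Cacnb3 was highest there in fraction 1, the array with the lowest signal, and Cacng3 and Cacng5 in fractions 10 and 6.

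Of 11 channel regulators 10 were tested, with 7, 4 and 2 called in the coronal, horizontal and sagittal series (70%, 40% and 20%). Of all probes 33.7%, 15.8% and 14.7% were called, so the sagittal share was near that of all probes. Stac, an adaptor that slows inactivation of L-type channels, was highest in coronal fraction 2 (1.84; adjusted p = 0.00415). Rims1, a scaffold that holds channels at release sites, passed in all 3 series, with its highest sagittal level in fraction 1, the array with the lowest signal. Cabp1, a calcium sensor bound to P/Q- and L-type pores, passed in the coronal and horizontal series (adjusted p = 0.00595 and 0.0229). Of 10 genes of calcium stores and calcium-activated potassium channels, 8 were tested, with 5, 2 and 0 called (62.5%, 25% and 0%). Beside the 33.7%, 15.8% and 14.7% of all probes, the horizontal share was near that of all probes. Itpr1, the inositol trisphosphate receptor abundant in Purkinje cells, ran in the coronal series from 3.54 in fraction 12 to 6.83 in fraction 3 (adjusted p = 0.0161). The fitted curves of the 3 lists spanned medians of 1.92, 1.42 and 1.22 log2 in the coronal series, against 0.90 over all probes. In the horizontal series the medians were 1.03, 1.73 and 0.89, against 0.74. The sagittal medians were 1.32, 1.21 and 1.06, against 1.06.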

How the data were processed

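RNA of 28 brain fractions was amplified, labelled with Cy3 and hybridised, 1 fraction per 1-colour Agilent array. The deposited intensity values came from Feature Extraction 10.5.1.1 per the file headers, with background subtracted. The authors also deposited log2 values, which matched the log2 levels computed here up to a constant of 0.00111 to 0.00758 per array (largest deviation 2.32e-06). Other deposited columns are flags for outlier, saturated and well-above-background spots.

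After removal of outlier spots (108 to 176 per array), spots of a probe were averaged, and the 75th percentile of the array was subtracted from log2 of the processed signal. At least 0.5 of a probe's spots had to carry the flag for it to count as well above background. RefSeq (GRCm38.p6) named 27235 of 55681 probes (48.9%). Tests covered 32364 probes, each well above background somewhere in every series. A fold against a fraction not well above background is a lower bound, taken from the dimmest probe of that array that was well above background where the gene itself was dimmer.

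Position was tested with limma 3.58.1 (R 4.3.3), fitting a natural cubic spline over fraction numbers (3 degrees of freedom, 2 in the horizontal series) and taking its F-test, and mirror pairs by an F-test over 5 pairs, with Benjamini-Hochberg adjustment over all probes tested and a threshold of 0.05. The scripts were tested on simulated data. The p-values measure the spread around a curve within 1 mouse. Correlations are descriptions and have no p-value. All 10 genes are named, with the 2 genes of most similar profile for each and examples from the lists. The genes, the lists and the tests were chosen with earlier results of these data known. Alternatives were the array median, quantile normalization, normexp (offset 50; on the median foreground, as the files used here hold no mean foreground), no filter or a stricter filter on dim probes, the deposited log2 values, the mean of all probes of a gene, 1 degree of freedom fewer, the slide, 1 slide only, each fraction left out and, added after the data were seen, the other probe of a gene. The number of arrays limits the precision. The labels give 100 sections of 5 micron to each fraction, the study states another thickness, and coronal fraction 12 also names a following fraction, so positions are fraction numbers. Neither source used here gives the direction of the numbering.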

Additional observations from a re-analysis of the deposited data

Results flagged for a closer look

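Cacna2d3 in horizontal fraction 6 lay far below the other 5 horizontal fractions. Its level there was 2.07, well above background, and the nearest fraction was at 2.79, so the gap took 0.788 of the whole range, above the critical value of 0.625 for 6 values. The median probe of this array also stood apart, at -2.79. Of 20 sets of values tested in this way, for 10 genes in the horizontal and sagittal series, 1 was singled out, and chance singles out about 1 in 20. The coronal series, with 12 fractions, was not tested.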

How the results depend on the processing

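In the coronal series 5 genes varied with position. The count was 0 with the slide as an added term and 0 on slide 2 alone, lay between 3 (without fraction 11, 24.5% of all probes called) and 6 (without fraction 1 or 10, 32.4% and 34.4%) with a fraction left out. It was 7 of 7 tested with the stricter filter (45.2%), 7 of 9 with 1 degree of freedom fewer (38.5%) and 4 to 6 under the others (31.2% to 39.3%). In the horizontal series 2 genes varied, and the count was 8 with the array median, 4 with quantile normalization, 5 with normexp and 1 with no filter on dim probes, where 59.8%, 21.2%, 28.0% and 13.3% of all probes were called. It was 6 of 7 tested with probes well above background in every fraction (22.8%). With 1 degree of freedom fewer it was 0, where 1 of 32364 probes was called. With a fraction left out it lay between 0 and 2 (0% to 17.8%), and without fraction 3 or 4 no probe was called. In the sagittal series 2 genes varied, and the count was 0 with the array median, 6 with normexp and 4 with no filter, where 1.04%, 44.2% and 34.5% of all probes were called, and 4 of 7 tested with the stricter filter (25.0%). It was 0 on slide 3 alone and 0 without fraction 1, where 0 of 32364 probes were called, so these fits say nothing of single genes. Without fraction 9 or 10 it was 6 (38.8% and 47.1%), the highest count with a fraction left out. Between mirror pairs 0 genes differed, and the count was 1 with the array median (3.46% of all probes) and 0 with any fraction left out. Of the 6 tested genes with a second probe, that probe passed for 3, 2, 3 and 0 in the coronal, horizontal and sagittal series and between mirror pairs, against 4, 2, 2 and 0 with the first. The cause of these moves was not tested. The fraction of highest level was the same in 24 of 30 profiles with the array median, 27 with quantile normalization, 23 with normexp and 30 with the deposited log2 values. No paired analysis was possible because fraction numbers are positions on different axes, with 1 mouse per plane. Signal over background limits Cacna1b, Cacna1c and Cacna1e, whose low levels are bounds.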

Other observations

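Cacna1s, known as the L-type pore of skeletal muscle, was well above background on all 28 arrays. Its coronal level ran from -1.39 in fraction 2 to 1.71 in fraction 11 (limma adjusted p = 0.00827). Stac3, known as an adaptor of that channel in muscle, was well above background on all 28 arrays too. Its coronal level ran from -3.08 in fraction 6 to 0.23 in fraction 11 (adjusted p = 0.0142), and its highest level in the horizontal and sagittal series was in fractions 6 (0.81) and 9 (1.85), the arrays whose median probe stood apart. Cacng6, a gamma subunit known from skeletal muscle, was well above background on 21 of 28 arrays and highest in coronal fraction 12 (-1.10). Its coronal low, in fraction 1, lay below that array's lowest level well above background, so no range is given. Cacna1f, the L-type pore known from the retina, was well above background on 0 of 28 arrays.

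Within the sagittal mirror pairs, the genes well above background on both sides were compared. All 8 such genes were higher in fraction 10 than in fraction 1, as were 43.8% of all probes tested that were measured on both sides. All 8 were lower in fraction 7 than in fraction 4 (49.1% of all probes). In fraction 8 they were lower than in fraction 3 for 6 of 7 (46.0%), and in fraction 9 lower than in fraction 2 for 6 of 7 (67.7%). Between fractions 5 and 6 they were split, with 5 of 9 higher in fraction 6 (49.1%). Fractions 1 to 4 were on slide 4 and fractions 5 to 10 on slide 3. The 75th percentile signal was 135 in fraction 1 and 205 in fraction 10.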
